A study of Mus musculus with 45 samples.

Results

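Newly transcribed RNA was compared with total RNA of NIH-3T3 cells after 30 min of labelling with 4-thiouridine (4sU). The comparison was taken from the sample titles and comprised 9 arrays of newly transcribed RNA (nt) and 9 arrays of total cellular RNA (tc), 18 of the 45 arrays of the series. Both groups shared their culture conditions: NIH-3T3, an immortalised mouse embryonic fibroblast line, with no genetic change named in the labels, between passage 5 and passage 15 after thawing, given fresh warmed medium with 500 µM 4sU from 0 to 30 min. Both fractions were therefore read from labelled cells. The rest of the series covered actinomycin D, a 15 min label and 60 min labels at 200 µM.

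4sU is taken up by cells and built into RNA in place of uridine while the RNA is made. Its sulfur atom can be coupled to biotin, which allows the labelled, newly made RNA to be drawn out of the total. A transcript whose pool is renewed quickly makes up a larger share of the new RNA than of all RNA after a short label, and a long-lived transcript makes up a smaller share. Fibroblasts are the classical cells in which immediate-early genes, short-lived messages induced by serum and growth factors, were studied.

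Each value was a GCRMA intensity, the background-corrected and normalised brightness of a probe set on an Affymetrix array, and all levels below are its log2. Arrays are scaled to a common range, so a change is the log2 ratio of a transcript's share in nt RNA to its share in tc RNA, not a number of molecules per cell. A probe set was tested when its mean over the 18 arrays was 5 or more (an intensity of 32). It was called when the limma fit gave a Benjamini-Hochberg adjusted p under 0.05 and a change of at least 2-fold, 1 on the log2 scale. Where one fraction lies under 5, the size of the change is uncertain. In RNA of a whole culture, fewer cells with a transcript and less of it in each cell cannot be told apart. Errors of a change are standard errors of the fit unless named SD.

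The 9 replicates fell into array sets of 3. Every nt array correlated best with an array of its own set, that is replicates 1, 4 and 7, replicates 2, 5 and 8, or replicates 3, 6 and 9, and so did every tc array (9 of 9 in each kind). Within a set, nt arrays correlated at 0.972 to 0.992 and tc arrays at 0.989 to 0.996. The nt arrays of replicates 1, 4 and 7 stood apart, at 0.907 to 0.938 with the other nt arrays, against 0.975 to 0.985 between the other sets. The difference between the 3′ and 5′ control probe sets of Gapdh also followed the sets. It was 0.29 to 0.90 in the nt arrays of replicates 1, 4 and 7 and -0.14 to 0.08 in the other nt arrays, and it was 0.42 to 0.62 in the tc arrays of replicates 2, 5 and 8 and -0.15 to 0.05 in the other tc arrays. Its part in the results was not tested. No label says whether the arrays of a set, or the sets, came from separate cultures, so p-values reflect only array-to-array variation, and that may be of technical origin. A fit over 3 set means against 3 is therefore given beside the 18-array fit for some results. The standard errors of changes between nt and tc RNA come from the 18-array fit and also reflect only array-to-array variation. Over the set means they were larger, at 0.187 against 0.084 for Urod, 0.210 against 0.113 for Fos and 0.175 against 0.063 for Actb.

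The cells carried fibroblast transcripts. All 16 fibroblast markers on the array had group means above 5 (8.67 to 14.01 in nt RNA and 8.01 to 13.94 in tc RNA), led by vimentin (Vim), the intermediate filament of mesenchymal cells. Of 12 epithelial, 11 leukocyte and 12 endothelial or muscle markers listed, only 5, 4 and 3 could be read from the deposited values. The markers read were all below 5. The brightest of each group was at 3.19, 3.57 and 2.49 in nt RNA and at 4.08, 3.22 and 2.61 in tc RNA. The other markers of these lists were not read, so the values say nothing about them.

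New and total RNA differed widely at 30 min. Of 16044 probe sets tested, 3804 were higher in nt RNA (23.7%) and 4112 were lower (25.6%), so 49.3% were called in either direction. The 9 nt arrays and the 9 tc arrays did not overlap for 53.0% of the probe sets. With 1 probe set per gene, the one of the highest mean, 1220 of 8226 genes were higher (14.8%) and 2371 were lower (28.8%), and the median change over all genes was -0.32. The set means gave 3690 higher (23.0%) and 3959 lower (24.7%) probe sets, and 7649 of the 7916 calls were made by both fits. Of the higher probe sets 1272 lay under 5 in tc RNA, and of the lower ones 753 lay under 5 in nt RNA, so the size of these changes is uncertain.

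The genes that mark the comparison showed its range. Gadd45g read 10.95, 11.19 and 11.64 in nt RNA (lowest, median and highest of 9 arrays), against 6.51, 7.78 and 8.24 in tc RNA. Gadd45g, a small stress-induced protein that binds cell cycle and kinase regulators, was thus far higher in every nt array than in any tc array. Its change was 3.68 ± 0.19, or 12.8-fold, with adjusted p = 9.4e-13 over the 18 arrays and 0.00011 over the set means (limma), and it was 4.22, 3.32 and 3.51 in the sets of replicates 1, 4 and 7, of 2, 5 and 8 and of 3, 6 and 9. Plk3 read 9.41, 9.86 and 11.26 in nt RNA, against 5.93, 6.81 and 7.17 in tc RNA. Plk3, a polo-like kinase of stress and cell cycle control, again had no overlap between the fractions, and its nt level was highest in replicates 1, 4 and 7, at 10.93 to 11.26 against 9.41 to 9.93 in the other sets. The change was 3.56 ± 0.26, or 11.8-fold, with adjusted p = 1.7e-10 over the 18 arrays and 0.00039 over the set means (limma), and 4.13, 3.73 and 2.83 by set. Urod read 6.09, 6.31 and 6.54 in nt RNA, against 9.36, 9.48 and 9.68 in tc RNA. Urod, uroporphyrinogen decarboxylase of haem synthesis, lay lower in every nt array than in any tc array, with little spread in either. The change was -3.19 ± 0.08, so nt RNA held 0.11 times the intensity of tc RNA, with adjusted p = 1.2e-15 over the 18 arrays and 0.0001 over the set means (limma), and -3.30, -3.17 and -3.09 by set. A further Urod probe set changed by -3.44 ± 0.13, with a mean of 4.04 in nt RNA and 7.48 in tc RNA.

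The immediate-early factor Fos served as a point of reference. Fos read 12.996, 13.52 and 13.70 in nt RNA, against 10.22, 10.78 and 11.04 in tc RNA. The fractions did not overlap, and the change was 2.73 ± 0.11 (adjusted p = 5.8e-14 over the 18 arrays and 0.0001 over the set means (limma)). Its tc level stood far above that of untreated cells before actinomycin D, where 3 arrays of another experiment read 5.70 to 5.90. Myc, a growth-promoting factor with a short-lived message, had medians of 12.48 in nt RNA and 9.92 in tc RNA, a change of 2.77 ± 0.15, and 8.91 to 9.40 in the same untreated cells. Actb, cytoplasmic beta-actin, was at 14.33 to 14.47 in nt RNA, against 13.76 to 13.99 in tc RNA, a change of 0.52 ± 0.06 that did not reach 2-fold.

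**Figure D1:**
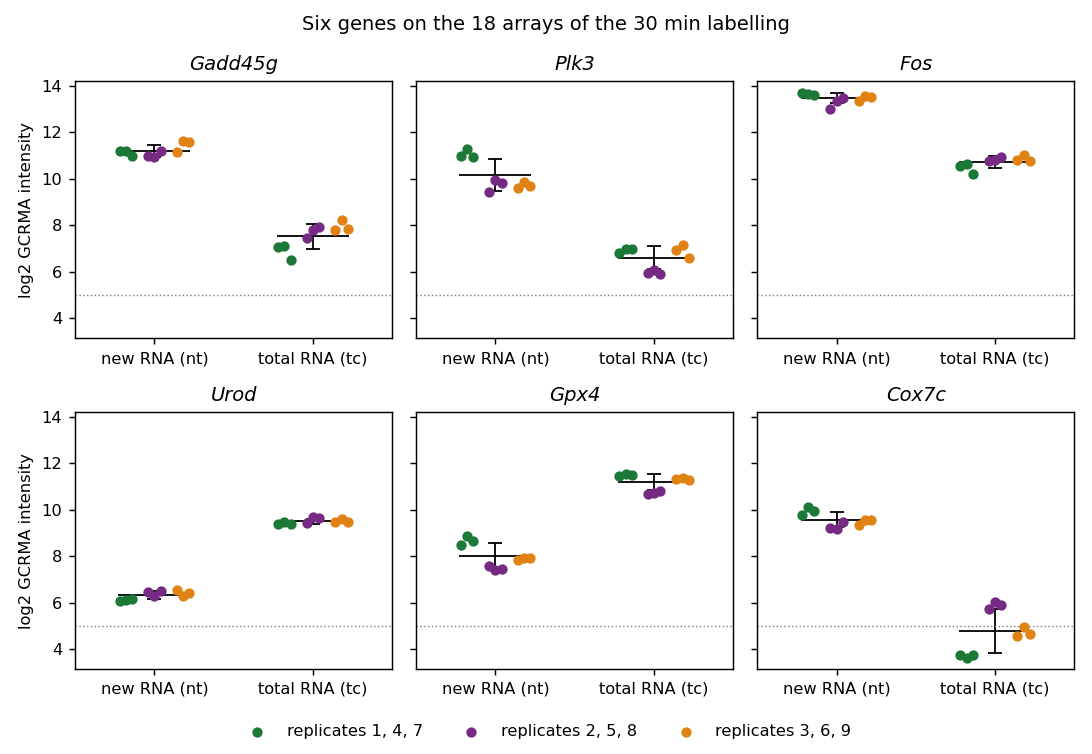
Log2 GCRMA intensity of 6 genes on each of the 18 arrays at 30 min, nt RNA left of tc RNA, with colours for the array sets, a bar for the mean and whiskers for the SD over 9 arrays, and a dotted line at the filter level of 5. Gadd45g, Plk3, Fos and Cox7c are higher in every nt array and Urod and Gpx4 are lower in every nt array, and the 3 arrays of a set lie close together.

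The promoters of Gadd45g, Fos, Plk3 and Urod are shown because these genes stand for the higher and the lower end of the comparison. Each is 250 bases before to 50 bases after the start site, from RefSeq on GRCm38.p6, printed 5′ to 3′ on the strand of the gene, with capitals for TATAAA where it was found. Gadd45g is at chr13:51846425-51846724 (plus strand), Fos at chr12:85473640-85473939 (plus strand), Plk3 at chr4:117133914-117134213 (minus strand) and Urod at chr4:116994364-116994663 (minus strand).
Gadd45g: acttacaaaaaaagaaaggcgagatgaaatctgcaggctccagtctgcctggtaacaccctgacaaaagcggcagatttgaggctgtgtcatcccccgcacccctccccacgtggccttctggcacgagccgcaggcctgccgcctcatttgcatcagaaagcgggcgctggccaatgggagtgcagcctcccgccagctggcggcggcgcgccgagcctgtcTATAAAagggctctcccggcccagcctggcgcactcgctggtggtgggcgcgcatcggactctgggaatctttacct
Fos: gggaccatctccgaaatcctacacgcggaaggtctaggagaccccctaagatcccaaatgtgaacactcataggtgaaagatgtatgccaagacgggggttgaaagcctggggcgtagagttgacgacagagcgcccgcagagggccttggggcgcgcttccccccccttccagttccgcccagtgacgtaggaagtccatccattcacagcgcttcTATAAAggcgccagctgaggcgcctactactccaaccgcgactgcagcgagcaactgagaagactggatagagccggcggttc
Plk3: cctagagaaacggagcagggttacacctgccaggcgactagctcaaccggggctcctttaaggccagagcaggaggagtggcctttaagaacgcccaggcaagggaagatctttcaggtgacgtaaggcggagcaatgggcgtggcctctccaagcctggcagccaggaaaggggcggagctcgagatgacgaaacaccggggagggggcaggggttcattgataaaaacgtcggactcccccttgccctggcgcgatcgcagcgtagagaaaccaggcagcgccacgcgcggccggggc
Urod: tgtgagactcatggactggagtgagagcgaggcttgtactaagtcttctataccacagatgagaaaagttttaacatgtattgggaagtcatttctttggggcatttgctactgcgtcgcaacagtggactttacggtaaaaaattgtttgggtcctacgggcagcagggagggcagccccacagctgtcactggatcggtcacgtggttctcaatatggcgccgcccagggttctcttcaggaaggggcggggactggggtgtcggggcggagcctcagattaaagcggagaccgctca
TATAAA lay from -27 to -22 of the Gadd45g start and from -33 to -28 of the Fos start, and it was not in the Plk3 and Urod windows. The windows held 21, 20, 22 and 14 CpG dinucleotides in the order printed.

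Over genes tested with exactly 1 window in the table, 5388 in all, TATAAA on either strand was in 8.07% of the 768 genes higher in nt RNA, 6.02% of the 1611 lower genes and 6.53% of all. TGACGTCA, the letters of the cAMP response element, was in 4.82%, 2.92% and 3.67%, and CCGGAAG, an Ets-type site, in 18.6%, 24.9% and 22.8% of the same groups. Over all 22862 windows of the table the shares were 14.8% for TATAAA, 1.85% for TGACGTCA and 9.12% for CCGGAAG. The median CpG count was 24 in higher, 20 in lower and 23 in all tested genes. These shares are descriptions without a test, and a match in a window is not a site of binding.

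The 10 largest increases by the naming rule were taken over genes with 1 probe set each, that of the highest mean (a mean of 7 or more, no overlap and a call in each set). Cox7c, a subunit of cytochrome c oxidase, headed them. It read 9.15, 9.53 and 10.10 in nt RNA, against 3.65, 4.63 and 6.02 in tc RNA. The fractions were far apart, but tc RNA of replicates 1, 4 and 7 read 3.65 to 3.77 and that of replicates 2, 5 and 8 read 5.74 to 6.02, so the change of 4.78 ± 0.31 has an uncertain size, and the sets gave 6.22, 3.38 and 4.74. A further Cox7c probe set rose by 3.61 ± 0.19, with means of 7.75 in nt RNA and 4.15 in tc RNA. A probe set with the platform symbol Mir1949 changed by 4.17 ± 0.22, and which RNA of that locus it reads is not given in the sources used here. Nrp changed by 3.86 ± 0.16, Zkscan1, a zinc finger protein, by 3.67 ± 0.24, Ttc19, a mitochondrial assembly protein, by 3.44 ± 0.12, and 4632427E13Rik by 3.42 ± 0.13. Arrdc3, an alpha-arrestin that controls receptor traffic, had medians of 10.62 in nt RNA and 7.16 in tc RNA, a change of 3.42 ± 0.15. Arc, an activity-regulated gene, had medians of 8.99 in nt RNA and 6.00 in tc RNA, a change of 3.54 ± 0.31, the only one of the 10 besides Cox7c whose tc level lay under 5 on any array. Gadd45g and Plk3 completed the 10.

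The 10 largest decreases followed the same rule. Vapb read 4.01, 5.46 and 7.05 in nt RNA, against 8.78, 9.73 and 10.08 in tc RNA. Vapb, an endoplasmic reticulum protein of membrane contact sites, showed the widest nt spread of the 10 and a change of -4.14 ± 0.37, -3.47, -3.43 and -5.51 by set. Gpx4 read 7.40, 7.94 and 8.87 in nt RNA, against 10.65, 11.32 and 11.52 in tc RNA. Gpx4, the peroxidase that removes lipid hydroperoxides, stayed well above 5 in both fractions, so its change of -3.16 ± 0.20 does not rest on the low end of the scale. Rabac1, a Rab acceptor of the Golgi, changed by -3.73 ± 0.26, Nt5dc2 by -3.54 ± 0.33, Tmem107, a protein of the ciliary base, by -3.38 ± 0.28, and Nenf, a secreted neurotrophic factor, by -3.38 ± 0.15. Pgls of the pentose phosphate pathway changed by -3.32 ± 0.29, Ech1 of fatty acid oxidation by -3.17 ± 0.15, and Tspo, the outer mitochondrial membrane translocator protein, by -3.16 ± 0.15. Urod completed the 10. All 10 had no overlap between the fractions, and the naming rule was met by 1493 genes, 559 higher and 934 lower.

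Genes of the immediate-early response were almost all higher in nt RNA. Of 22 AP-1, Egr and Nr4a family genes and related early genes tested, 21 were higher and 0 lower, with a median change of 2.25, against 14.8% of genes higher and a median of -0.32 over all genes. In each of the 3 sets 18 of them were called. Atf3 read 8.10, 9.10 and 10.13 in nt RNA, against 5.33, 5.93 and 6.26 in tc RNA. Atf3, a stress-induced partner of the AP-1 factors, thus lay at the edge of the scale in tc RNA and changed by 3.29 ± 0.22. Junb, an AP-1 subunit, had medians of 11.69 in nt RNA and 8.87 in tc RNA, a change of 2.96 ± 0.22. Csrnp1, a nuclear protein induced by axin, had medians of 9.41 in nt RNA and 6.28 in tc RNA, a change of 3.04 ± 0.20. Jund, the AP-1 subunit kept at a steady level in many cells, was the exception and is described with the array sets.

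MAP kinase phosphatases and Sprouty proteins feed back on growth factor signals, and most of their genes were higher. Of 15 members tested, 11 were higher (73.3%), 0 lower and 4 not called (median 1.87). Dusp6 read 12.50, 12.97 and 13.32 in nt RNA, against 9.49, 9.96 and 10.08 in tc RNA. Dusp6, the phosphatase of ERK in the cytoplasm, had one tc array, replicate 3, below the rest, and its fractions were still far apart with a change of 3.02 ± 0.12. Dusp5, its nuclear counterpart, had medians of 12.58 in nt RNA and 9.66 in tc RNA, a change of 3.02 ± 0.16. Dusp1 had medians of 12.84 in nt RNA and 10.14 in tc RNA, a change of 2.80 ± 0.16, and Errfi1, an inhibitor of the EGF receptor, 14.24 in nt RNA and 12.04 in tc RNA, a change of 2.11 ± 0.11. Among 12 genes of NF-kappaB and its inhibitors, 4 were higher (33.3%), 1 lower (8.33%) and 7 not called (median 0.32). Of all genes 14.8% were higher and 28.8% lower. The higher ones included the inhibitors Nfkbiz, with a change of 2.72 ± 0.16, and Nfkbia, with 2.37 ± 0.11, and the subunit Nfkb2, with 1.45 ± 0.22, which changed by only 0.73 in replicates 3, 6 and 9.

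Several families of transcription factors were higher in nt RNA. Of 11 Kruppel-like factors, zinc finger proteins of growth and differentiation, 9 were higher and 0 lower (median 2.01). Klf6 had medians of 12.59 in nt RNA and 9.30 in tc RNA, a change of 3.40 ± 0.15, and Klf10 of 11.08 in nt RNA and 8.12 in tc RNA, a change of 3.00 ± 0.22. Klf2 read 9.64, 11.02 and 12.65 in nt RNA, against 7.92, 8.71 and 9.07 in tc RNA, so its nt level varied over a wide range while the fractions did not overlap (change 2.54 ± 0.37). Of 28 Zbtb factors, zinc finger repressors with a BTB domain, 17 were higher and 1 lower (median 1.19). Bcl6, a repressor of this family, changed by 2.44 ± 0.17, Zbtb43 by 2.45 ± 0.19, Zbtb6 by 2.36 ± 0.15 and Zbtb7a by 2.17 ± 0.26. Among 28 homeobox, Sox, Fox and Tead factors 7 were higher (25.0%) and 9 lower (32.1%), against 14.8% and 28.8% of all genes. The lower share was thus close to that of all genes. The lower count was 4 at a mean of 7 or more and 5 with log2 of the value plus 32. Sox9, a chondrocyte factor, rose by 1.71 ± 0.12 and Six4 by 1.68 ± 0.17, while Prrx2 changed by -1.90 ± 0.18, Tead2 by -1.78 ± 0.24 and Pbx2 by -1.77 ± 0.18.

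Growth arrest and cell signalling genes followed in part, beside 14.8% of all genes higher and 28.8% lower. Of 11 Gadd45, Btg, Tob and Cdk inhibitor genes, 7 were higher and 2 lower (median 1.09). Btg2, an antiproliferative protein that also binds the deadenylase complex, had medians of 13.12 in nt RNA and 9.78 in tc RNA, a change of 3.23 ± 0.16, Gadd45a of 10.71 in nt RNA and 7.92 in tc RNA, a change of 2.80 ± 0.14 and Gadd45b of 10.17 in nt RNA and 7.93 in tc RNA, a change of 2.39 ± 0.15. Cdkn2c, an inhibitor of Cdk4 and Cdk6, went the other way by -1.03 ± 0.15, close to the 2-fold limit and with overlapping fractions, and the call was lost with quantile normalization (-0.996). Of 4 polo-like kinases 2 were higher: Plk2 read 12.89 to 13.25 in nt RNA, against 10.43 to 10.95 in tc RNA, beside Plk3. Of 15 clock genes 7 were higher and 1 lower (median 0.83), among them Bhlhe40 at 2.59 ± 0.16, Nfil3 at 2.52 ± 0.15, Per1 at 2.38 ± 0.24 and Cry2 at 1.72 ± 0.13. Of 23 genes of the TGF-beta and BMP pathway 10 were higher and 0 lower (8 higher over the set means). The inhibitors of helix-loop-helix factors, which are BMP targets, led them: Id1 changed by 2.90 ± 0.11, Id3 by 2.51 ± 0.16 and Id4 by 2.39 ± 0.57, and Id4 had overlapping fractions and an adjusted p of 0.0547 over the set means. Smad7, the inhibitory Smad, changed by 2.42 ± 0.21.

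Of 20 Notch and Wnt pathway genes 7 were higher (35.0%) and 2 lower (10%), against 14.8% and 28.8% of all genes, with a median of 0.50 against -0.32. Jag1, a Notch ligand, changed by 1.20 ± 0.11, the Wnt co-receptor Lrp6 by 1.21 ± 0.13 and the kinase Gsk3b by 1.13 ± 0.18. Only 1 of the 7 higher genes was called in every array set, and 4 were higher at a mean of 7 or more. The array set that holds replicate 2, taken alone, called 4 higher. There Jag1, Lrp6 and Gsk3b changed by 0.99, 0.91 and 0.59, which is under 2-fold. Dvl2, which relays Wnt signals, changed by -1.68 ± 0.25, and by -0.97 in that set. The receptor Fzd2 changed by -1.12 ± 0.30. The fractions overlapped for Fzd2, its change was -0.41 in replicates 1, 4 and 7, and the set means did not call it (adjusted p = 0.0791, limma), which left 1 lower gene in the list. Of 11 Bcl2 family genes 2 were higher and 2 lower (18.2% each). Mcl1, a short-lived inhibitor of apoptosis, read 13.03 to 13.31 in nt RNA, against 11.27 to 11.52 in tc RNA, a change of 1.73 ± 0.07. Bak1, an effector of apoptosis, was called lower by -1.45 ± 0.51, but the set means did not call it (adjusted p = 0.158, limma) and its sets disagreed (0.10, -1.03 and -3.41).

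Kinases and cyclins of splicing and elongation were more often higher in nt RNA than all genes (14.8% higher and 28.8% lower), while subunits of the polymerases were more often lower. Of 17 Clk kinases, L-type cyclins, P-TEFb regulators and Brd proteins 10 were higher (58.8%) and 0 lower (median 1.31). Ccnl1, a cyclin of splicing, read 13.11 to 13.50 in nt RNA, against 10.06 to 10.88 in tc RNA, a change of 2.97 ± 0.12. Clk1, a kinase of splicing factors, changed by 2.72 ± 0.17, Cdk12, a kinase of the RNA polymerase II tail, by 3.07 ± 0.36, and Ccnt1, the cyclin of P-TEFb, by 2.24 ± 0.17. Of the polymerases, 10 of 24 RNA polymerase subunits were lower (41.7%) and 2 higher (8.33%, median -0.70), with Polr2i at -2.64 ± 0.23 and Polr2e at -2.60 ± 0.11 and, against them, Polr3f at 1.60 ± 0.10 and Polr3d at 1.37 ± 0.13. Mediator subunits were close to all genes, with 10 of 32 lower (31.25%) and 5 higher (15.6%): Med30 changed by -1.54 ± 0.12 and Med14 by -1.52 ± 0.14, against 1.37 ± 0.16 for Med1 and 1.30 ± 0.11 for Med7. Of 18 Sm, Lsm and snRNP proteins 9 were lower (50%) and 0 higher, led by Snrpc at -1.91 ± 0.13.

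Chromatin, ubiquitin and RNA decay genes had calls both ways, where 14.8% of all genes were higher and 28.8% lower. Of 45 histone methylation enzymes 13 were higher (28.9%) and 3 lower (6.67%, median 0.45). Prdm2 changed by 2.69 ± 0.12, Nsd2 by 1.94 ± 0.10 and Kmt5b by 1.80 ± 0.14, while the arginine methyltransferase Prmt1 changed by -1.74 ± 0.30 and the H3K9 methyltransferase Ehmt2 by -1.43 ± 0.30, with overlapping fractions. Of 46 cullin adaptors and F-box proteins 10 were higher and 6 lower. Fbxw2 changed by 3.36 ± 0.17, Fbxo30 by 2.29 ± 0.25 and Fbxw7, which marks cyclin E and Myc for destruction, by 1.69 ± 0.14, against -2.10 ± 0.32 for Fbxw8. Another Fbxw2 probe set was called lower, at -1.02 ± 0.07, so the direction of Fbxw2 depends on the probe set taken. Of 50 RNA decay proteins and AU-rich element binders 8 were higher and 8 lower (16.0% each, median 0.05), a higher share close to that of all genes. Zfp36, the protein that directs decay of AU-rich messages, rose by 2.73 ± 0.22, its relative Zfp36l1 by 1.78 ± 0.11 and the decapping protein Dcp1a by 1.81 ± 0.11, whereas Tial1 changed by -1.93 ± 0.21 and the exosome subunit Exosc8 by -1.66 ± 0.09.

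Nuclear noncoding RNAs and the hosts of small nucleolar RNAs were mostly higher, 14 of 19 with 0 lower (median 1.50). Of all genes 14.8% were higher and 28.8% lower (median -0.32). Snhg7 read 10.52, 10.97 and 11.98 in nt RNA, against 7.76, 8.03 and 8.39 in tc RNA. Snhg7, a host of small nucleolar RNAs, had no overlap and its nt level was highest in replicates 1, 4 and 7. Its change was 3.14 ± 0.20, and those of Snhg12, Dancr and Snhg5 were 3.00 ± 0.14, 2.78 ± 0.20 and 2.72 ± 0.13. Of replication-dependent histones only 2 could be tested, and 1, the linker histone H1f2, was called. H1f2 read 4.56, 9.29 and 12.36 in nt RNA, against 5.63, 6.64 and 8.20 in tc RNA, an overlap that came with set changes of 3.95, 0.58 and 2.49 and no call over the set means (adjusted p = 0.126, limma).

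Genes of the mitochondrion were mostly lower in nt RNA. All 32 tested subunits and assembly factors of respiratory complex I, the NADH dehydrogenase, were lower, with a median of -2.07 and a middle range of -2.29 to -1.88, against 28.8% lower over all genes. In each of the 3 sets 30 of them were called. Ndufb10 read 7.51, 8.00 and 8.77 in nt RNA, against 10.60, 10.98 and 11.12 in tc RNA. Ndufb10, an accessory subunit, changed by -2.85 ± 0.16, and Ndufa3, Ndufb2 and Ndufa7 changed by -2.62 ± 0.14, -2.61 ± 0.11 and -2.53 ± 0.18. Of 39 genes of complexes II to V 35 were lower and 1, Cox7c, was higher (median -1.68). Atp5o of the ATP synthase changed by -3.06 ± 0.11, Uqcr11 of complex III by -3.05 ± 0.18 and Sdhb, the iron-sulfur subunit of complex II, by -2.94 ± 0.13. Of 75 mitochondrial ribosomal proteins 53 were lower and 0 higher, and of 32 import proteins and carriers 19 were lower and 0 higher. Mrps25 changed by -2.54 ± 0.15, Mrpl54 by -2.48 ± 0.19, Timm10b by -2.44 ± 0.12 and Tomm7 of the outer membrane pore by -2.30 ± 0.13.

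Metabolic and redox enzymes were mostly lower, where 28.8% of all genes were lower and 14.8% higher. Of 31 genes of fatty acid oxidation and the peroxisome 23 were lower and 0 higher (median -1.76), among them Etfb, which passes electrons from the dehydrogenases, at -3.13 ± 0.10, Eci1 at -2.62 ± 0.16 and Echs1 at -2.50 ± 0.21. Of 28 glycolysis and citrate cycle genes 23 were lower and 1 higher. Idh2 changed by -2.64 ± 0.13 and Pfkl, a phosphofructokinase, by -2.51 ± 0.29, while Hk2, the inducible hexokinase, read 10.21 to 10.61 in nt RNA, against 8.31 to 8.68 in tc RNA, a rise of 1.91 ± 0.07. Of 10 haem genes 7 were lower and 1 higher (median -1.58). Beside Urod, the synthesis enzyme Alad changed by -2.27 ± 0.17 and Hmox2, the constitutive haem oxygenase, by -1.27 ± 0.16, whereas the inducible haem oxygenase Hmox1 rose by 1.66 ± 0.23. Of 32 glutathione, thioredoxin and peroxiredoxin genes 20 were lower and 2 higher. Gstm5 changed by -3.02 ± 0.11 and Prdx4 by -2.57 ± 0.09, and Txnip, the thioredoxin inhibitor with a short-lived message, rose by 2.61 ± 0.31, with nt levels from 9.61 to 12.34.

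Genes of lysosomes and of the secretory route were mostly lower as well, beside 28.8% of all genes lower and 14.8% higher. Of 41 lysosome, V-ATPase and Ragulator genes 34 were lower and 0 higher (median -1.57). Lamtor2, a Ragulator subunit, changed by -2.96 ± 0.12, and the cathepsins Ctsz, Ctsa and Ctsd by -2.71 ± 0.14, -2.59 ± 0.13 and -2.36 ± 0.20. Of 42 genes of the endoplasmic reticulum translocon and glycosylation 24 were lower and 0 higher, with Ddost, Rpn2 and Ost4 of the oligosaccharyl transferase at -2.81 ± 0.18, -2.78 ± 0.12 and -2.57 ± 0.15. Of 49 matrix genes 25 were lower and 3 higher (median -1.06). Col1a1, a chain of type I collagen, changed by -1.94 ± 0.23 and Plod3, which modifies collagen lysines, by -2.11 ± 0.22. Against them Thbs1, thrombospondin 1, rose by 1.78 ± 0.13 and Ccn2, a growth factor-induced matrix protein, by 1.61 ± 0.07. Of the 16 fibroblast markers 6 were lower (37.5%, against 28.8% of all genes) and 0 higher. Among the lower ones were Col6a2 at -1.90 ± 0.12, Col6a1 at -1.80 ± 0.13 and Thy1 at -1.49 ± 0.21.

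Of 37 proteasome subunits 27 were lower and 0 higher (73.0% lower, median -1.37), with Psmd8 at -2.33 ± 0.15 and Psmb1 at -2.26 ± 0.10. Lists of protein synthesis lay closer to all genes, of which 28.8% were lower and 14.8% higher. Of 36 initiation factors 12 were lower (33.3%) and 1 higher (2.78%): Eif3k changed by -2.89 ± 0.12, whereas Eif4a2, a helicase of initiation, rose by 1.61 ± 0.06. Of 27 aminoacyl-tRNA synthetases 12 were lower (44.4%) and 0 higher, led by Vars at -2.20 ± 0.24, and of 14 chaperonin and prefoldin subunits 6 were lower (42.9%) and 0 higher, led by Pfdn5 at -2.67 ± 0.19. Of 44 cytosolic ribosomal proteins 11 were lower and 3 higher (median -0.78), a lower share of 25.0% that is close to the 28.8% of all genes. Rpl14 changed by -2.25 ± 0.10 and Rps27l by -2.09 ± 0.23. Rpl12 and Rps25 went the other way, at 3.34 ± 0.14 and 2.56 ± 0.14, from probe sets that read 8.16 to 8.52 and 8.84 to 9.74 in tc RNA.

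Cell cycle and cytoskeleton genes had lower shares near or below the 28.8% of all genes. Of 32 mitosis genes 8 were lower (25.0%) and 0 higher (median -0.74), among them Cdca3 at -2.26 ± 0.15, the cyclin Ccnb2 at -1.74 ± 0.14 and Pttg1, securin, at -1.37 ± 0.10. Of 44 genes of DNA replication and G1/S 15 were lower (34.1%) and 6 higher (13.6%, against 14.8% of all genes). The clamp loader subunits Rfc2 and Rfc4 changed by -2.16 ± 0.17 and -1.91 ± 0.12 and the kinase Cdk4 by -2.02 ± 0.12, while the factor E2f3 rose by 1.90 ± 0.15 and the phosphatase Cdc25a by 1.48 ± 0.18. Of 50 actin, tubulin and annexin genes 9 were lower (18%) and 2 higher (4%). Anxa6 changed by -2.66 ± 0.21 and Arpc1a of the Arp2/3 complex by -1.90 ± 0.10, against 2.57 ± 0.17 for the myosin light chain Myl6 and 1.11 ± 0.12 for transgelin (Tagln).

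**Figure D2:**
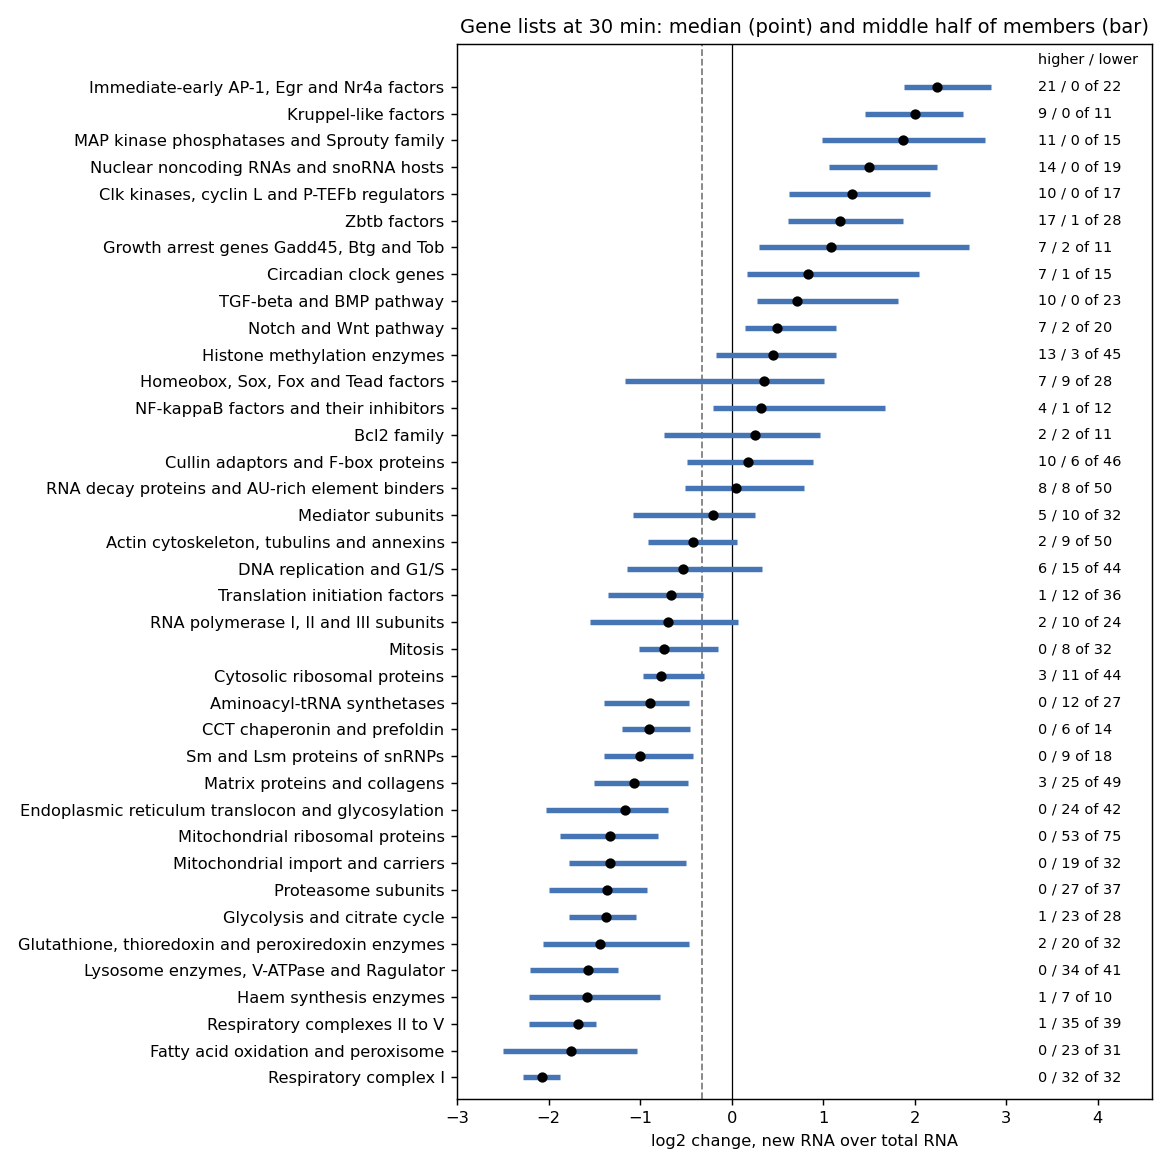
Log2 change of nt over tc RNA for each gene list with 10 or more tested members, sorted by median, with a point for the median, a bar for the middle range between quartiles and, at the right, the numbers called higher and lower. Solid and dashed vertical lines mark 0 and the median of all 8226 genes (-0.32). Immediate-early, Kruppel-like and MAP kinase phosphatase genes lie at the top and respiratory complex I at the bottom.

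Probe sets without a gene symbol were mostly higher in nt RNA. Of 1566 such probe sets tested, 1047 were higher (66.9%) and 170 lower (10.9%), with a median change of 2.03. Of 14038 probe sets with 1 symbol, 19.2% were higher and 27.1% lower, with a median change of -0.23. The median level of probe sets without a symbol was 7.51 in nt RNA and 5.56 in tc RNA, against 7.40 in nt RNA and 7.52 in tc RNA for those with 1 symbol. The set means gave 65.5% higher for probe sets without a symbol and 18.6% for those with 1. No test of this difference was made, and what these probe sets detect is not given in the sources used here.

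Some genes had probe sets that were called in opposite directions. Among 1921 genes with 2 or more probe sets at a mean of 7 or more, 44 (2.29%) had 1 probe set higher and another lower. Clta, a light chain of clathrin, had the widest gap. One Clta probe set read 8.80, 9.14 and 9.49 in nt RNA, against 4.19, 4.69 and 5.86 in tc RNA, a change of 4.23 ± 0.22. The other read 8.22, 8.58 and 8.83 in nt RNA, against 10.05, 10.23 and 10.39 in tc RNA, a change of -1.67 ± 0.09. The first lay near the low end of the scale in tc RNA, so the size of its change is uncertain. Rps10, a ribosomal protein, had changes of 4.15 ± 0.21 and -1.61 ± 0.16, Atp5g2 of the ATP synthase 2.95 ± 0.21 and -2.66 ± 0.13, the histone chaperone Rbbp4 2.76 ± 0.25 and -2.64 ± 0.25, and Fubp1, a DNA-binding regulator of Myc, 3.03 ± 0.23 and -2.37 ± 0.24. The result of a gene therefore depends on the probe set taken, and the part of this in the gene lists was not tested.

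**Figure D3:**
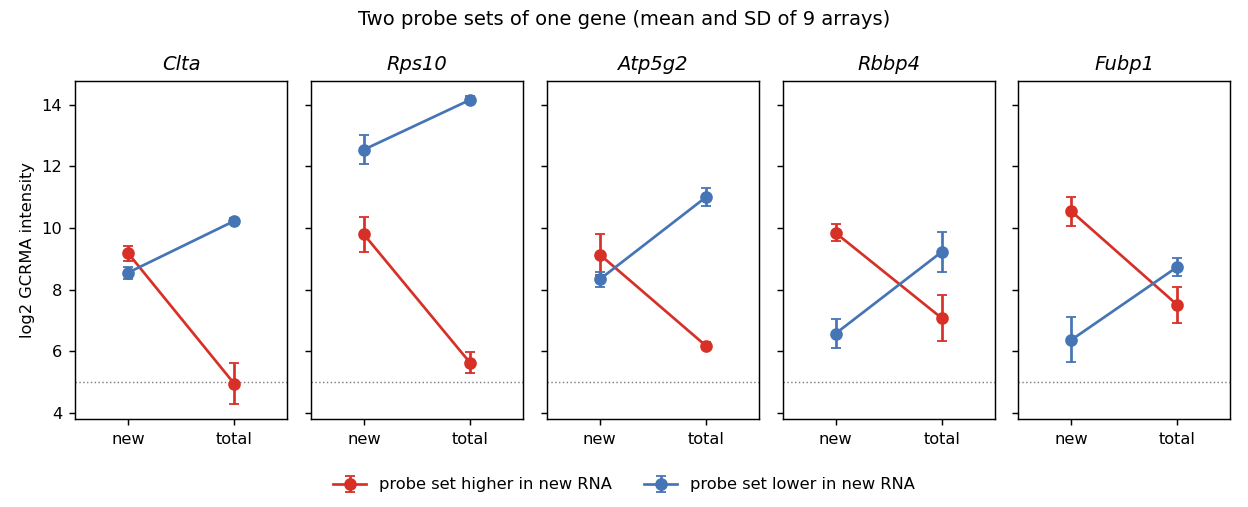
Mean log2 GCRMA intensity of both probe sets of 5 genes in nt (new) and tc (total) RNA at 30 min, with SD over 9 arrays as whiskers and a dotted line at 5. In each gene one probe set is higher in nt RNA and the other is lower.

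The 3 array sets gave largely the same directions. Taken alone, replicates 1, 4 and 7 called 4103 probe sets higher (25.6%) and 4364 lower (27.2%), replicates 2, 5 and 8 called 3368 (21.0%) and 3861 (24.1%), and replicates 3, 6 and 9 called 4177 (26.0%) and 4224 (26.3%). In all 3 sets 2937 probe sets were higher (18.3%) and 2745 lower (17.1%), which is 71.8% of the 7916 called over the 18 arrays. Of those 7916, 99.0% had one sign in every set and 77 did not, while over all 16044 probe sets 80.8% had one sign. The 7916 were called from the same 18 arrays, so their shared sign follows in large part from that selection and is not separate support. A pair of sets called 62 probe sets in opposite directions. Across probe sets, which are not independent, the changes correlated at Pearson r of 0.899 between the sets of replicates 1, 4, 7 and 2, 5, 8, at 0.890 between 1, 4, 7 and 3, 6, 9 and at 0.926 between 2, 5, 8 and 3, 6, 9 (Spearman 0.894, 0.882 and 0.915). Without replicates 1, 4 and 7 the counts were 3690 higher and 4004 lower.

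**Figure D4:**
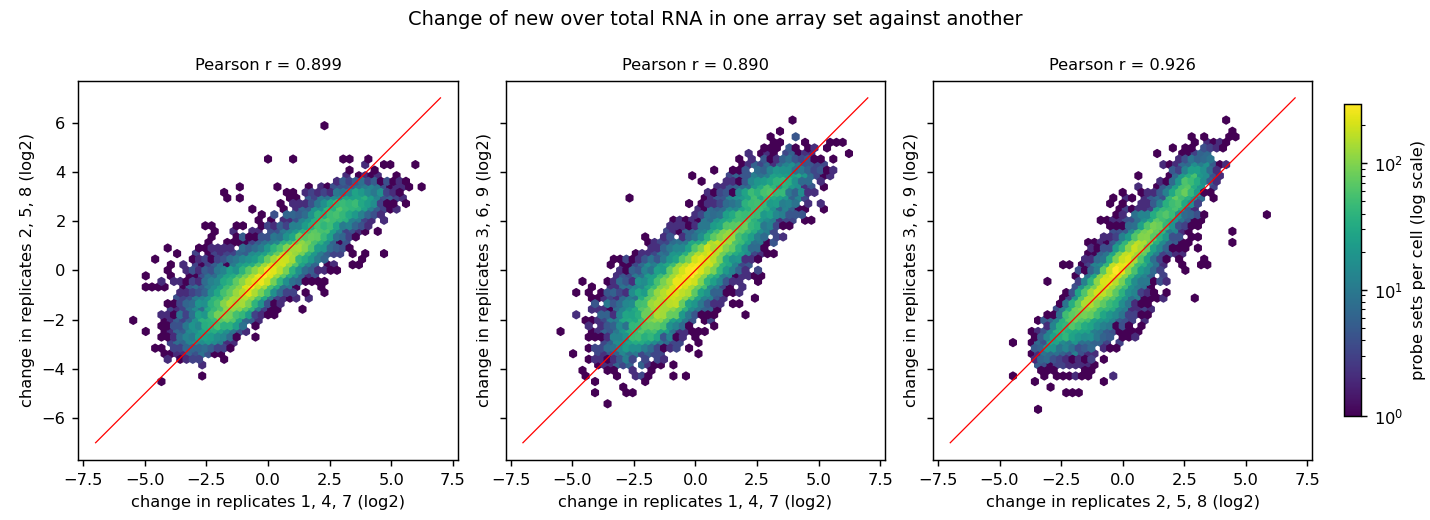
Log2 change of nt over tc RNA in one array set against another, for each of the 16044 probe sets tested, with colour for the number of probe sets per cell on a log scale and a red line for equal changes. The clouds follow the line, with Pearson r of 0.899, 0.890 and 0.926 from left to right.

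The size of the change nonetheless differed between sets for many probe sets. An F test of the group by set interaction with a range of at least 2-fold called 4329 probe sets (27.0%), and with no condition on the range it called 9709 (60.5%). Jund read 8.18, 8.92 and 11.53 in nt RNA, against 8.70, 8.93 and 9.91 in tc RNA. Jund, a steady AP-1 subunit, thus had fully overlapping fractions over the 18 arrays and a change of 0.30 ± 0.38, made up of 1.95 in replicates 1, 4 and 7, -0.27 in 2, 5 and 8 and -0.78 in 3, 6 and 9. Its difference between replicates 1, 4 and 7 and the others was 2.47 ± 0.28 (adjusted p = 1e-05, limma). Arc, H1f2 and Jund had the largest called differences towards a larger change in replicates 1, 4 and 7, where Arc reached 5.12. Vwa5a, Lrpprc and Fbxo30 went the other way there: Vwa5a changed by -3.64 in replicates 1, 4 and 7, -1.93 in 2, 5 and 8 and -1.71 in 3, 6 and 9. Between the other sets the largest differences were in Prrc2a, Tle5 and Tomm40 on one side and Ifit1, Zbed6 and Ifi35 on the other. Prrc2a changed by -0.98 in replicates 1, 4 and 7, -0.43 in 2, 5 and 8 and -4.21 in 3, 6 and 9. Ifit1, an interferon-induced gene, changed by 2.22 in replicates 1, 4 and 7, 0.67 in 2, 5 and 8 and 3.33 in 3, 6 and 9, with nt levels of 6.93 to 12.10 and tc levels of 5.06 to 9.16. Tomm40, the pore of the outer mitochondrial membrane, changed by -1.38 in replicates 1, 4 and 7, 1.03 in 2, 5 and 8 and -1.84 in 3, 6 and 9. The call of Ifit1 in the 18-array fit was lost over the set means (adjusted p = 0.219, limma), and so was that of Prrc2a (adjusted p = 0.0688, limma).

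Independent arrays of the series gave other readouts of the same probe sets. Actinomycin D stops transcription, and after 2 h at 5 µg/ml, 1419 of 15060 probe sets were lower in total RNA than before (9.42%) and 81 were higher (0.538%), or 305 higher with quantile normalization. Of 2120 probe sets higher in nt RNA at 30 min and tested here, 841 were lower after actinomycin D (39.7%), with a median change of -0.73. Of 4104 lower in nt RNA, 16 were lower after actinomycin D (0.390%), with a median change of 0.29. Without replicates 1, 4 and 7 of the 30 min arrays these counts were 789 and 26. The changes correlated at Spearman -0.61 across 14053 probe sets, a description over probe sets that are not independent. Gadd45g, Plk3, Fos and Arc could not be tested there, since their mean over those arrays lay under 5. Among those tested, Dusp1 changed by -6.82 ± 0.24, Myc by -5.38 ± 0.19, Dusp6 by -5.10 ± 0.30, Plk2 by -4.68 ± 0.27 and Errfi1 by -3.34 ± 0.11 after actinomycin D. Btg2, at 0.56 ± 0.16, and Thbs1, at -0.24 ± 0.15, were higher in nt RNA and not called after actinomycin D. Urod, lower in nt RNA, changed by 0.48 ± 0.12 and was not called either.

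Pre-existing RNA at 60 min, the part left unlabelled, was set against total RNA in the same way. There 1072 of 15411 probe sets were lower (6.96%) and 288 higher (1.87%). Of 2788 probe sets higher in nt RNA at 30 min, 1021 were lower in pre-existing RNA (36.6%), with a median of -0.92. Of 4090 lower in nt RNA, 151 were higher in pre-existing RNA (3.69%), with a median of 0.61. Another 4 of the 4090 were lower there (0.0978%), among them Vapb at -1.285 ± 0.27, the largest decrease by the naming rule. Errfi1 changed by -1.79 ± 0.24, Nrp by -2.87 ± 0.38 and Ttc19 by -3.69 ± 0.36, all called lower. Gadd45g, at -0.51 ± 0.40, Plk3, at -0.095 ± 0.46, and Urod, at 0.06 ± 0.43, were not called. These counts rest on 3 arrays a group. With the replicate numbers as a block they were 1208 lower and 600 higher, and leaving out 1 replicate number in turn gave 493 to 1547 lower and 5 to 1744 higher. The lowest counts of higher probe sets, 21 and 5, came without replicate 2 and without replicate 3, and the highest, 1744, came without replicate 1.

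**Figure D5:**
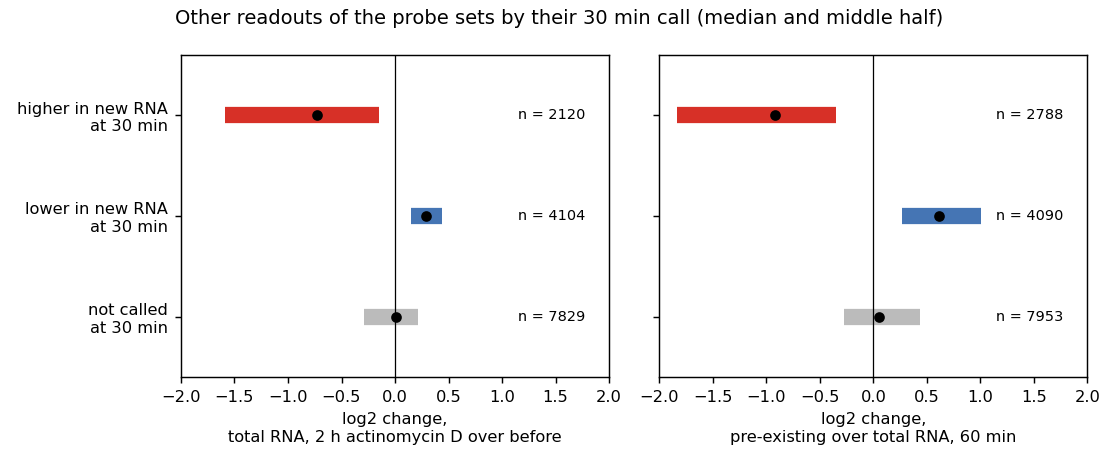
Log2 change after 2 h of actinomycin D (left) and of pre-existing over total RNA at 60 min (right) for probe sets grouped by their 30 min call, with a point for the median, a bar between the quartiles and n for the number of probe sets. Probe sets higher in nt RNA at 30 min lie below 0 in both (medians -0.73 and -0.92) and those lower in nt RNA lie above 0 (0.29 and 0.61).

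The enrichment at 30 min was also set against that at 60 min, where the dose was 200 µM, so time and dose differ together. The 30 min changes correlated at Spearman 0.803 with those of the first 60 min experiment and at 0.935 with those of the 60 min experiment titled 2F, a term left without explanation in the titles, over 16044 probe sets. Probe sets called higher at 30 min had median changes of 2.07 at 30 min, 1.40 in the first and 1.67 in the 2F 60 min experiment. Those called lower had -1.61, -1.28 and -1.41. Both classes were picked by their 30 min change, which enlarges the 30 min medians. These medians therefore cannot show whether the enrichment differs between the labels. The difference itself was called for 1672 probe sets with a higher (10.5%) and 1319 with a lower (8.28%) ratio at 30 min than in the first 60 min experiment, and for 600 (3.73%) and 414 (2.57%) against 2F. Leaving out 1 replicate number of the 2F arrays in turn left 217 to 273 and 190 to 243.

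The genes named for their difference from the first 60 min experiment included Cox7c, which changed by 4.78 at 30 min and 1.70 at 60 min (difference 3.08 ± 0.74, adjusted p = 0.0059, limma). Cat, catalase, changed by -0.61 at 30 min and -3.65 at 60 min (difference 3.05 ± 0.60, adjusted p = 0.0019, limma). Itga5, the integrin subunit that binds fibronectin, changed by 0.12 at 30 min and 3.57 at 60 min (difference -3.45 ± 0.89, adjusted p = 0.00905, limma). Cox7c thus had a smaller ratio at 60 min, Cat a lower one and Itga5 a higher one. Zbtb7a and Erf also had a larger ratio at 60 min, with differences of -2.77 ± 0.67 and -2.74 ± 0.74, and Magt1 a smaller one, with 2.55 ± 0.51. Against the 2F experiment, Gas7 changed by -2.55 at 30 min and -0.11 at 60 min (difference -2.44 ± 0.54, adjusted p = 0.00487, limma). Sp3, a factor that binds GC boxes, changed by 1.40 at 30 min and -0.48 at 60 min (difference 1.88 ± 0.34, adjusted p = 0.00123, limma).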

How the data were processed

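RNA of NIH-3T3 cells was extracted with Trizol and labelled by the one-cycle protocol for Affymetrix arrays, per the labels' protocols. The authors deposited linear intensity values made with GCRMA (named in the submitters' processing notes, with no version); filters and any pooling are not given in the sources used here. The log2 of each deposited intensity was taken here. Of 31451 probe sets, 61 controls stayed out of the tests. Of the other 31390, 25031 had 1 gene symbol in the platform annotation, 690 had several and 5669 had none, for 13232 genes. A check against RefSeq found a match for 24934 probe sets, and 0 symbols changed. Precision is limited by how many arrays there are, since arrays have no read depth.

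Probe sets with a mean log2 of at least 5 over the 9 nt and 9 tc arrays entered a fit with 1 factor, the group (lmFit and eBayes of limma 3.58.1, R 4.3.3). A call needed a 2-fold change and a p under 0.05 after Benjamini-Hochberg adjustment across the probe sets tested. The fit was tested on simulated data. The array sets were fitted alone and their difference by a group by set interaction. The 60 min, actinomycin D and pre-existing RNA comparisons used their own arrays. Tables were made with Python 3.11.15 and pandas 2.3.3.

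Genes named were Gadd45g, Plk3 and Urod, the 10 largest called increases and decreases with a mean of 7 or more, 1 symbol, 1 probe set per gene, no overlap and a call in each set, up to 4 called members per gene list (and up to 2 against its majority) with a mean of 7 or more, the 5 genes with the most discordant probe sets, the 3 largest differences each way between sets and experiments, and Fos, Myc and Actb. The members and lists were chosen with earlier results of these data known. The 44 lists were written from general knowledge.

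Labels give replicate numbers but no shared culture. Deviations of same-numbered nt and tc arrays correlated at -0.12 to 0.46, above 0.1 in 6 of 9 pairs. These values do not settle whether the 30 min numbers pair the arrays, so the main fit was unpaired and the replicate block was an alternative. The 3 pairs correlated at 0.26 to 0.58 for actinomycin D and at 0.22 to 0.39 for pre-existing RNA, so those numbers may pair arrays there, by the data alone. The main fits there were unpaired too. For pre-existing RNA the unpaired fit gave 288 higher and 1072 lower probe sets, against 600 and 1208 with the replicate block. For actinomycin D it gave 81 and 1419, against 89 and 1422 with the block. Alternatives were other normalizations, filters and a pseudocount, blocks, set means, single sets, and arrays or sets left out.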

Additional observations from a re-analysis of the deposited data

Results flagged for a closer look

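Among the named genes, 388 groups of 9 arrays were examined for an array far from the rest, and 10 held one. For 9 independent, normally distributed values the cut-off flags about 1 group in 20, or 19.4. The arrays lie in sets of 3, so that rate need not hold here, and no conclusion is drawn from it. In nt RNA, Suclg1, a citrate cycle subunit, read 8.25 in replicate 7, against 7.64 in the next array, Psmb1 read 9.90 in replicate 7, against 9.47, and Ehmt2 read 9.37 in replicate 7, against 8.91. Arc read 9.98 in replicate 4, against 9.35, and Col6a1 read 9.95 in replicate 4, against 9.73. The lowest nt arrays were 9.74 in replicate 2 for 4632427E13Rik, against 9.97, and 4.88 in replicate 1 for P4ha2, a collagen prolyl hydroxylase, against 5.76. In tc RNA the lowest arrays stood apart for Dusp6, at 9.49 in replicate 3 against 9.84, for Sdhb, at 10.07 in replicate 9 against 10.28, and for Ccnb2, at 7.72 in replicate 9 against 7.88.

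The enrichment differed between the 30 min label and the first 60 min experiment by the interaction test for Itga5 (-3.45), Zbtb7a (-2.77), Erf (-2.74), Magt1 (2.55), Cat (3.05) and Cox7c (3.08), each as the log2 change at 30 min minus that at 60 min. Against the 2F experiment it differed for Gas7 (-2.44), Csnk1e (-1.88), Trim32 (-1.82), Rab26os (1.65), Sp3 (1.88) and the Mir1949 probe set (1.95). The call of Trim32 was lost without any 1 of the 2F replicates, and those of Rab26os and the Mir1949 probe set were lost without replicate 1.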

How the results depend on the processing

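The counts at 30 min stayed within 1.5 times their value under quantile normalization, median centring, log2 of the value plus 32, array set or run blocks, set means, and each array set alone or left out. With the replicate block they were 3809 higher and 4110 lower, and leaving out 1 array gave 3745 to 3895 higher and 4077 to 4163 lower. Without the filter, 5715 were higher, and at a mean of 7 or more, 1778 were higher and 2305 lower, since other numbers of probe sets were tested. That stricter filter also gave 1325 higher and 1567 lower in all 3 sets and 1804 that differed between sets. It gave 666 higher and 719 lower against the first 60 min experiment and 227 and 200 against 2F. Leaving out a 60 min replicate gave 1257 to 1628 and 897 to 1689 for the first experiment, and 217 to 273 and 190 to 243 for 2F. For 2 h of actinomycin D, 305 were higher with quantile normalization and 139 higher and 2349 lower without the filter, and leaving out a replicate gave 90 to 119 higher and 1376 to 1421 lower. For pre-existing RNA, 174 were higher with quantile normalization, 643 without the filter and 600 with the replicate block, and leaving out a replicate gave 5 to 1744 higher and 493 to 1547 lower. The genes with discordant probe sets were 72 in replicates 1, 4 and 7 alone. Signs turned for Bak1 in replicates 1, 4 and 7 alone (0.10), for Jund in replicates 2, 5 and 8 alone (-0.27), in 3, 6 and 9 alone (-0.78) and without 1, 4 and 7 (-0.52), for Ifi35 in replicates 3, 6 and 9 alone (0.046) and for Tomm40 in replicates 2, 5 and 8 alone (1.03). Where no cause is named, the cause was not tested. Signal near the background limits the size of changes with a fraction under 5.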
